A study of Mus musculus with 24 samples.

Results

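Nuclear receptors other than the REV-ERBs, the RORs, Thra and the glucocorticoid receptor were described in differentiated mouse embryonic stem cells, across the time course of control and REV-ERB-deficient cells. The members were the genes whose symbol in the deposited exon table stood on a list of 40 receptor genes, chosen by name and not by level. They occupied 41 of the 33079 rows of the table, because Ppard was listed as 2 overlapping gene models of 1437 and 3210 exonic bases. Control cells (WT) were Per2::Luciferase knock-in ES cells without a receptor deletion, and deficient cells (KO) carried the same knock-in and deletions of exons of both Rev-erbα and Rev-erbβ, made with CRISPR first in Rev-erbβ and then in Rev-erbα. Both lines were differentiated to day 28, first as floating embryoid bodies and then, for most of that time, plated on gelatin, which gives cells of several germ layers, and received 100 nM dexamethasone, a glucocorticoid used to align the clocks of cultured cells. PolyA-selected RNA was sequenced every 4 h from 12 to 56 h afterwards, with 1 library per genotype and time point for which the RNA of 3 embryoid bodies was combined. Each genotype was thus 1 cell line, and the genotype and the history of the line cannot be told apart. The 12 libraries of a genotype were 12 time points, so p-values measure the spread between these libraries and not between independent lines.

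Nuclear receptors are transcription factors that bind DNA through a zinc finger domain and bind a ligand through a second domain, and the ligand or its absence decides which coactivators and corepressors are recruited. The retinoid X receptors (RXRs) are the shared heterodimer partners of the retinoic acid, vitamin D, thyroid hormone, PPAR, LXR and FXR receptors, steroid receptors act as homodimers, and many orphan receptors bind as monomers. REV-ERBs belong to the same family and repress transcription, and several other members compete for closely related DNA motifs. In the embryo these receptors take part in the patterning of tissues by retinoic acid and in the maturation of liver, gut, fat and heart cells.

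The upstream sequences of the NR4A genes are shown first because all 3 genes of this family were lower in KO cells (below). NR4A genes are immediate early genes, and their best known control element is the cAMP response element, whose core is TGACG. The sequences are those of RefSeq (GRCm38.p6), read 5′ to 3′ on the strand of each gene, with TGACG or its reverse complement CGTCA in capitals.
Nr4a1, chr15:101266596-101266845, plus strand, the 250 bases before the annotated start: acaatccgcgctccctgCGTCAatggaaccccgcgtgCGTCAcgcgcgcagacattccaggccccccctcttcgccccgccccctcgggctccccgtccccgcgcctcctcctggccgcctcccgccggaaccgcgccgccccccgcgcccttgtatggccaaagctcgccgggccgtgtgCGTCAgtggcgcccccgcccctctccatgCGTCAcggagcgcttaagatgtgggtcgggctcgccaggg
Nr4a2, chr2:57124004-57124253, minus strand, the 250 bases before the annotated start: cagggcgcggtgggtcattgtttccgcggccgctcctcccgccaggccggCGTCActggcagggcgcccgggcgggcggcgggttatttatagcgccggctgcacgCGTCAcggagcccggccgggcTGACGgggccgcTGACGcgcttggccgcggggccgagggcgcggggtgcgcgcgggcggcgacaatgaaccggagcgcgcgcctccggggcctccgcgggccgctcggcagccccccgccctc
Nr4a3, chr4:48045055-48045152, plus strand, 98 bases that end 153 bases before the annotated start, since the remainder of the window overlaps an annotated exon: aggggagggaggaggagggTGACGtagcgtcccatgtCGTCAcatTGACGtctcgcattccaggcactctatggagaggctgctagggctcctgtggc
TGACG was found 4 times in the printed stretch of Nr4a1, 4 times in that of Nr4a2 and 3 times in that of Nr4a3. Windows were the 250 bases before each start, searched on both strands. Of 32851 windows, 17.8% held these letters, against 22.4% of the 58 windows of 38 receptor genes that could be matched. The genes with such a window were Esr2, Esrrb, Nr2c1, Nr2c2, Nr2e1, Nr4a1, Nr4a2, Nr4a3, Nr6a1, Ppara, Rara, Rxrb and Thrb, 13 in all, and their differences between genotypes went in both directions.

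The second sequence shown belongs to Rarb, the only receptor gene with a change over time that passed the test (below). Its promoter is the textbook case of a retinoic acid response element, a direct repeat of a receptor motif with a spacer of 5 bases, shown with the repeats in capitals.
Rarb, chr14:16575513-16575528, minus strand, 52 to 37 bases before the annotated RefSeq start, within an exon of another Rarb transcript: GTTCAccgaaAGTTCA
The pattern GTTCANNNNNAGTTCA was found on either strand in 9 of the 32851 windows (0.0274%) and among the receptor genes in that of Rarb alone. Of other motifs, AGGTCA, the core of most receptor sites, lay in 17.2% of the 58 windows against 14.0% of all windows, AGAACA, a core of steroid receptor sites, in 6.90% against 16.1%, CCAAT in 32.8% against 33.8% and the E-box CACGTG in 8.62% against 6.02%. GGTCANNNTGACC, the palindrome of estrogen receptor sites, lay in none of the 58 windows and in 0.0639% of all windows. These matches are descriptions of letters and not of binding.

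Between 6183500.5 and 10287969 fragments per library fell on the exons of the table, 44.7% to 46.0% of the library totals. The deposited values were RPKM, reads scaled to exonic length and to the library total. Gene-level values of the 2 deleted genes include reads outside the deleted exons and do not check the labels. Nr1d1 (Rev-erbα) ranged from 3.58 to 7.48 RPKM in WT (median 4.67) and from 2.48 to 9.74 in KO (median 6.93), and Nr1d2 (Rev-erbβ) from 0.895 to 3.02 in WT (median 1.83) and from 1.38 to 5.27 in KO (median 3.16). Cell type markers varied among libraries. Summed over 8 endoderm markers, levels ran from 106 to 1040 RPKM in WT and from 106 to 1039 in KO, with the 4 highest sums at 16, 36 and 56 h, and over 7 neural markers from 8.73 to 51.1 in WT and from 5.36 to 17.3 in KO. The epithelial sum of KO exceeded that of WT at all 12 times and all 5 markers passed the test as higher, and the cardiac sum did so at 9 times, with 5 of 6 markers higher and 1 lower in the test. Smooth muscle and fibroblast markers had 4 of 7 higher and 1 lower, endothelial markers 2 of 5 higher, leukocyte markers 2 of 5 higher, endoderm markers 2 of 8 lower (Gata6 and Gata4) and neural markers 1 of 6 tested lower (Gfap), while neither of 2 tested adipocyte markers nor the 1 tested pluripotency marker passed. Of all genes, 25.9% passed the same test, 11.2% higher and 14.7% lower. Differences of the 6 tested neural markers ran from -4.07 to -0.19 on the log2 scale, with a median of -0.52. The neural sum of KO was the higher at 2 of 12 times, and the leukocyte sum at all 12. No marker was at 0 in every library. In such bulk samples, fewer cells of a type and less RNA per cell cannot be told apart.

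The receptors covered a wide span of levels, and the medians by role include rows too low to be tested (below). Averaged over all 24 libraries, the median level was 7.55 RPKM for the 6 retinoid receptors, 0.865 for the 13 orphan receptors, 0.773 for the 11 rows of lipid and xenobiotic sensors, 0.495 for the 3 NR4A receptors, 0.323 for the 6 hormone receptors and 0.0223 for the 2 receptors without a DNA-binding domain, against 3.88 for all genes tested. The most abundant was Nr1h2 (LXRβ, an oxysterol receptor), at 19.3 ± 1.09 RPKM in WT and 19.2 ± 0.859 in KO (SD, n = 12 time points each). It was followed by Nr2f6, an orphan receptor of the COUP-TF group, at 14.1 ± 1.14 and 15.3 ± 0.901, and by Rarg (retinoic acid receptor γ) at 13.5 ± 0.547 and 13.3 ± 0.773. Rxra stood at 12.5 ± 0.528 RPKM in WT and 12.2 ± 0.598 in KO, less than the sum of the SDs below Rarg in each genotype, and Rxrb at 9.86 ± 0.726 and 9.90 ± 0.349. The most abundant hormone receptor was Vdr, the vitamin D receptor, at 7.49 ± 0.679 and 6.86 ± 0.682 RPKM, and the most abundant NR4A gene was Nr4a1 at 3.11 ± 0.325 and 2.59 ± 0.264. Abundant receptors varied little between libraries, with a coefficient of variation of 4.05% for Rarg and 5.64% for Nr1h2 in WT. Receptors of restricted cell types varied more in WT, with 53.2% for Nr4a2, 43.4% for Nr2f1 and 38.4% for Hnf4a. WT libraries held 15 to 99 fragments of Nr4a2 and 551 to 908 of Rarg, and the part of counting error was not tested.

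**Figure D1:**
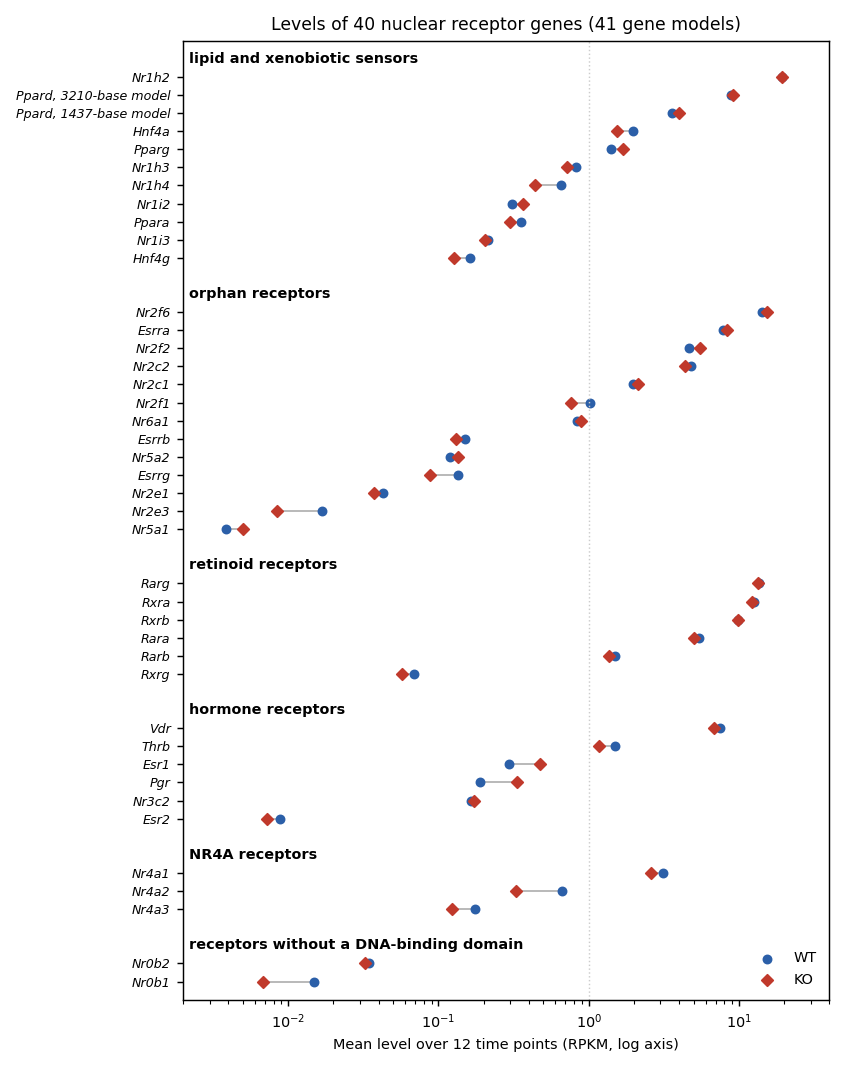
Mean level of each receptor gene model over 12 time points in WT (blue circles) and KO (red diamonds), in RPKM on a log axis, grouped by role. Levels ran from 0.00441 RPKM for Nr5a1 to 19.3 RPKM for Nr1h2, and most pairs of symbols lie close together compared with that span.

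A mean above 0.5 RPM, a value scaled to the library total alone, in WT or KO was required for testing, which 15112 genes and 32 of the 41 receptor rows passed. Closest inside were Esrrb at 0.630 RPM in WT and 0.550 in KO, Hnf4g at 0.674 and 0.527, Nr3c2 (the mineralocorticoid receptor) at 0.673 and 0.701, Esrrg at 0.710 and 0.464, Nr1i2 (PXR) at 0.776 and 0.917 and Nr4a3 at 0.979 and 0.683. Esrrg passed through WT only. Closest outside were Nr5a2 (LRH-1) at 0.442 and 0.498 RPM and Nr1i3 (CAR) at 0.301 and 0.286. The other rows not tested were Esr2, Nr0b1, Nr0b2, Nr2e1, Nr2e3, Nr5a1 and Rxrg, at means of at most 0.0685 RPKM in either genotype. Of these, Nr0b1 was at 0 in 17 of the 24 libraries, Nr5a1 in 15, Esr2 and Nr2e1 in 11 each, Nr2e3 in 10 and Nr0b2 in 4, whereas Rxrg had reads in every library. At this depth no difference between genotypes was detectable for them.

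Levels were compared between 12 WT and 12 KO libraries with limma on log2(RPKM + 0.1), a scale on which the change of low genes is understated, and p-values were adjusted by Benjamini-Hochberg over all 15112 genes. Of the 32 receptor rows, 13 passed an adjusted p of 0.05 (40.6%), 6 higher and 7 lower in KO, against a background of 25.9% of all genes tested, 11.2% higher and 14.7% lower. With quantile normalization the split was 6 higher and 4 lower. The median size of the difference was 0.16 on the log2 scale for the receptors and 0.09 for all genes. The median level was 0.773 RPKM for all 41 receptor rows, which include the rows too low to test, and 3.88 for all genes tested. The median level of the 32 tested rows alone was not computed, and the part of level in these sizes was not tested. In no receptor were the WT and KO ranges apart, which was so for 0.609% of all genes. The same direction at 11 or 12 times was seen in 17.1% of all genes, 7.50% with KO above WT and 9.65% with KO below. Among the 32 receptor rows it was seen in Pgr and Esr1 (KO above) and in Nr4a1, Nr4a2, Thrb and Vdr (KO below), a share near that of all genes. Fewer rows passed with fewer libraries: 8 of the 13 remained without the 16, 36 and 56 h time points, whose libraries include the 4 richest in endoderm markers (background 19.4%), and 5 rows passed in the time points up to 32 h alone (background 7.38%) and 5 from 36 h on (background 12.6%).

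**Figure D2:**
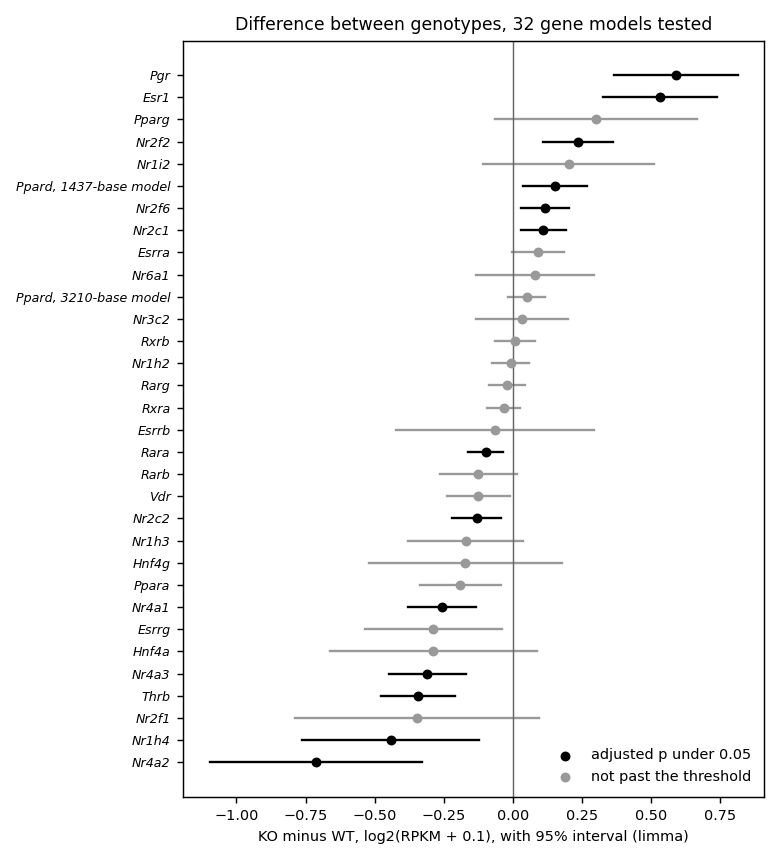
Difference between KO and WT for the 32 receptor rows tested, as log2(RPKM + 0.1) with 95% intervals from limma, ordered by size. Black symbols have an adjusted p under 0.05, grey symbols do not; Pgr lies at 0.59 at the top and Nr4a2 at -0.71 at the bottom.

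All 3 NR4A genes fell in KO, where 14.7% of all genes were called lower, and no other role group was called in full. These orphan receptors are induced within minutes by many stimuli, including cAMP and calcium, and act without a classical ligand. Nr4a1 (Nur77, chromosome 15, 101266846 to 101274794) ranged from 2.61 to 3.55 RPKM in WT with a median of 3.20, and from 2.04 to 3.07 in KO with a median of 2.56. The KO value was the lower of the pair at all 12 times, although the ranges overlapped, with 8 KO libraries below the lowest WT library. The difference was -0.26 on the log2 scale (SE 0.0591, limma adjusted p = 0.00267). Nr4a3 (NOR-1, chromosome 4, 48045305 to 48086446) ranged from 0.129 to 0.257 RPKM in WT (median 0.174) and from 0.0885 to 0.181 in KO (median 0.120), with KO below WT at 10 of 12 times. Its difference was -0.31 (SE 0.0668, limma adjusted p = 0.00156), and rested on a mean of 17.2 fragments in WT and 11.9 in KO libraries, so that its counting error was large; with quantile normalization the adjusted p was 0.0882.

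Nr4a2 (Nurr1, chromosome 2, 57107226 to 57124003), known for its role in dopamine neurons, differed by -0.71 (SE 0.187, limma adjusted p = 0.00678). Its WT libraries fell into 2 sets. In 5 of them it lay between 0.321 and 0.369 RPKM, within the KO range of 0.238 to 0.417 (KO median 0.336), and in the other 7 between 0.624 and 1.45, above every KO library. The same 5 libraries had the lowest summed neural markers in WT, 8.73 to 10.6 RPKM, and the 7 others had 16.0 to 51.1. Neural sums in KO ran from 5.36 to 17.3, with only 1 above the lowest of those 7. The part of the neural markers in the difference of Nr4a2 was not tested. The calls of Nr4a1, Nr4a2 and Nr4a3 held under 12 of 13, 10 of 12 and 10 of 12 alternative settings.

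Among the 5 hormone receptors tested, Pgr and Esr1 rose and Thrb fell, against 11.2% higher and 14.7% lower among all genes. Pgr (progesterone receptor, chromosome 9, 8899833 to 8968611), itself a classical target of the estrogen receptor, ranged from 0.0882 to 0.282 RPKM in WT (median 0.187) and from 0.218 to 0.561 in KO (median 0.318). Esr1 (estrogen receptor α, chromosome 10, 4710158 to 5005633) ranged from 0.181 to 0.407 RPKM in WT (median 0.298) and from 0.336 to 0.65 in KO (median 0.462). For each gene KO exceeded WT at 11 of 12 times, with 8 KO libraries above the highest WT library, and only at the ends of the ranges did the groups overlap. The log2 difference was 0.59 for Pgr (SE 0.109, limma adjusted p = 0.000393) and 0.53 for Esr1 (SE 0.1003, limma adjusted p = 0.000493), and the means differed by factors of 1.78 and 1.60. Both held in each of the 12 alternative settings run. The libraries held on average 23.0 (WT) and 40.6 (KO) fragments of Pgr and 32.3 and 51.4 of Esr1. The summed epithelial markers and the summed leukocyte markers were each higher in KO at all 12 time points. Both sums thus moved with both genes between genotypes, and their part was not tested.

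Thrb (thyroid hormone receptor β, chromosome 14, 17981644 to 18038088) ranged from 1.17 to 1.85 RPKM in WT (median 1.52) and from 0.893 to 1.48 in KO (median 1.16). KO lay below WT at 11 of 12 times, with 9 KO libraries below the lowest WT library, and the exception was 56 h, where KO reached its highest value. The difference was -0.34 (SE 0.0651, limma adjusted p = 0.000497) and held under 12 of 13 alternatives. Vdr lay below WT in KO at 11 of 12 times but did not pass, at -0.13 with a 95% interval from -0.24 to -0.01 (limma adjusted p = 0.0933; 0.0465, past the threshold, with rhythm and slope as covariates). Nr3c2 differed by 0.03, with an interval from -0.13 to 0.20.

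**Figure D3:**
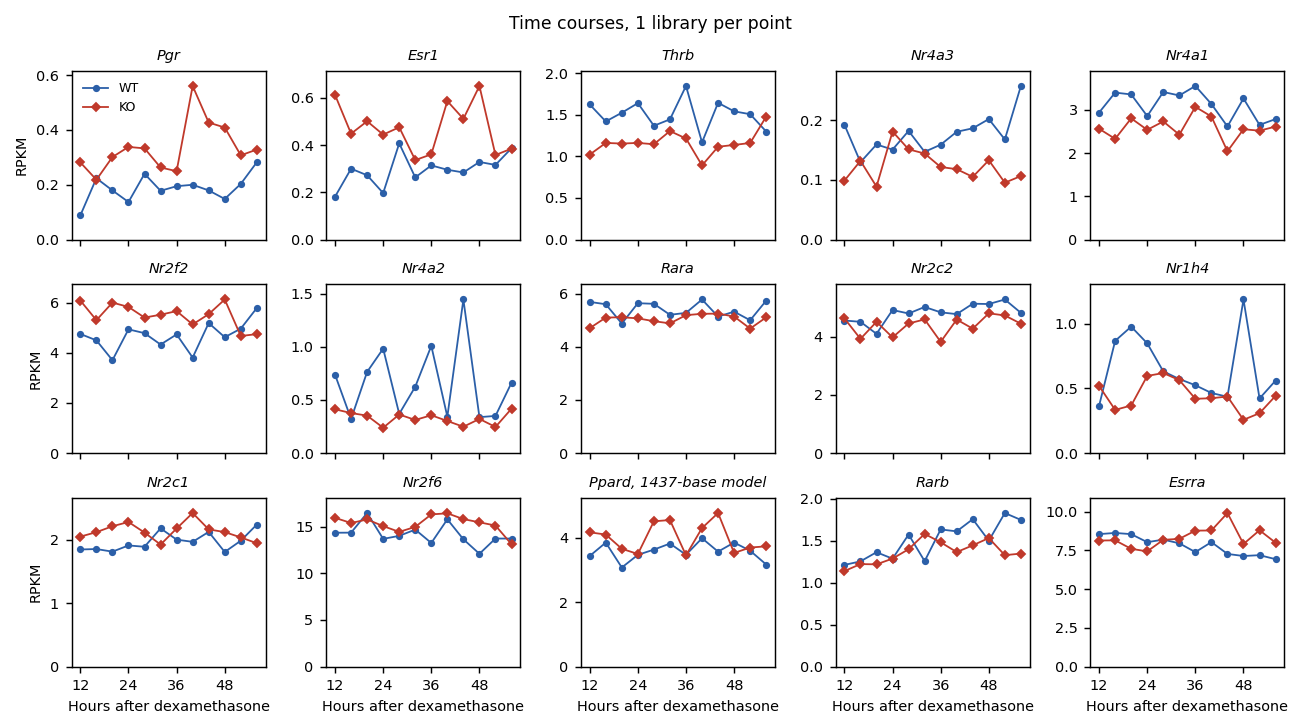
Levels in RPKM over time after dexamethasone for the 13 receptor rows that passed the genotype test, followed by Rarb and Esrra, with 1 library per point, WT in blue circles and KO in red diamonds. Pgr and Esr1 of KO lie above WT at 11 times, Nr4a1 lies below at all 12, and Nr4a2 in WT alternates between values near those of KO and values up to 1.45 RPKM.

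Of the 9 orphan receptors tested, 3 rose and 1 fell, by at most 0.23 on the log2 scale, against 11.2% higher and 14.7% lower among all genes. Nr2f2 (COUP-TFII, chromosome 7, 70351950 to 70360593), a regulator of mesenchyme and of venous endothelium, ranged from 3.70 to 5.79 RPKM in WT (median 4.74) and from 4.67 to 6.13 in KO (median 5.53). KO exceeded WT at 10 of 12 times and the ranges overlapped, with a difference of 0.23 (SE 0.0612, limma adjusted p = 0.00658). It was 0.34 up to 32 h (limma adjusted p = 0.0148) and 0.13 from 36 h on, where it did not pass (limma adjusted p = 0.373). On the opposite strand, 7.46% of its exon bases in GENCODE are shared with B130024G19Rik, which differed by 0.22 (limma adjusted p = 0.0388). The endothelial and the smooth muscle sums of KO also exceeded those of WT, each at 10 times, although within WT the relation of Nr2f2 to the endothelial sum was negative (n = 12, r = -0.413, permutation p = 0.182, adjusted 0.304; rho = -0.643, permutation p = 0.0279, adjusted 0.0931; r = -0.498 without the 2 farthest libraries), and their part was not tested. Nr2c1 (TR2) rose by 0.11 (limma adjusted p = 0.0427), from 1.97 ± 0.145 to 2.13 ± 0.138 RPKM, and Nr2c2 (TR4), its usual dimer partner, fell by 0.13 (limma adjusted p = 0.0252), from 4.83 ± 0.323 to 4.41 ± 0.327. Nr2f6 rose by 0.12 (limma adjusted p = 0.0456), between 12.1 and 16.5 RPKM in WT and 13.1 and 16.4 in KO. The calls of Nr2c1, Nr2c2 and Nr2f6 held under 8, 8 and 9 of 13 alternatives. Libraries of this kind do not mark strand, and 54.4% of the Nr2f6 exon bases in GENCODE are shared with Ocel1 on the opposite strand and 31.2% of those of Nr2c2 with Mrps25 and Gm44249 together, so that these levels may include reads of the partner; Ocel1 itself differed by -0.12 (limma adjusted p = 0.113) and Mrps25 by -0.06 (limma adjusted p = 0.153).

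The other orphan receptors did not pass. Nr2f1 (COUP-TFI), a regulator of the developing cortex, ranged from 0.491 to 1.65 RPKM in WT and from 0.434 to 1.42 in KO, with a difference of -0.35 and an interval from -0.79 to 0.09 (limma adjusted p = 0.244). The estrogen-related receptors, which drive mitochondrial genes without a known natural hormone, gave 0.09 for Esrra (limma adjusted p = 0.155), -0.07 for Esrrb (limma adjusted p = 0.809) and -0.29 for Esrrg (limma adjusted p = 0.0810). Nr6a1, a receptor of early embryonic and germ cells, differed by 0.08, with an interval from -0.14 to 0.29.

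Of the 5 retinoid receptors tested, Rara alone passed, a share near the 25.9% of all genes. It stood at 5.41 ± 0.310 RPKM in WT and 5.04 ± 0.192 in KO. It ranged from 4.88 to 5.79 RPKM in WT (median 5.47) and from 4.69 to 5.25 in KO (median 5.11), with 8 WT libraries above the highest KO library, and fell by 0.10 (SE 0.0309, limma adjusted p = 0.0204). The call held under 10 of 13 alternatives and was lost up to 32 h (adjusted p = 0.121), from 36 h on (adjusted p = 0.319) and without the 16, 36 and 56 h time points (adjusted p = 0.0862), in limma each time. Rarg differed by -0.02 with a 95% interval from -0.09 to 0.04, Rxra by -0.03 with one from -0.09 to 0.03 and Rxrb by 0.01 with one from -0.06 to 0.08. The intervals of these 3 abundant receptors thus excluded a change of 0.10 in either direction on the log2 scale. Rarb differed by -0.13 (limma adjusted p = 0.182), with -0.02 up to 32 h (limma adjusted p = 0.914) and -0.23 from 36 h on, where it passed (limma adjusted p = 0.0190).

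Lipid and xenobiotic sensors had 1 higher and 1 lower call among 10 rows, a share near the 25.9% of all genes. Nr1h4 (FXR, chromosome 10, 89454234 to 89506658), the bile acid receptor, ranged from 0.366 to 1.19 RPKM in WT (median 0.566) and from 0.257 to 0.618 in KO (median 0.430), with KO below WT at 10 of 12 times. The difference was -0.44 (SE 0.155, limma adjusted p = 0.0381), and 5 WT libraries, at 16, 20, 24, 28 and 48 h, lay above every KO library. The call held under 5 of 12 alternatives, and without the 16, 36 and 56 h time points the adjusted p was 0.167. The 1437-base model of Ppard (PPARδ, chromosome 17, 28232754 to 28296379) rose by 0.15 (SE 0.0557, limma adjusted p = 0.0468), from 3.58 ± 0.276 to 4.00 ± 0.461 RPKM, whereas the overlapping 3210-base model, at 8.86 ± 0.343 and 9.18 ± 0.578 RPKM, differed by 0.05 (limma adjusted p = 0.271). The call of the shorter model held under 6 of 13 alternatives, and the split of reads between the models is uncertain.

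The other sensors did not pass. Ppara, the fatty acid receptor of oxidative tissues, was at 0.356 ± 0.0506 RPKM in WT and 0.301 ± 0.0577 in KO, a difference of -0.19 just outside the threshold (limma adjusted p = 0.0509). Pparg, which drives fat cell formation, differed by 0.30 with an interval from -0.06 to 0.66. Hnf4a, a regulator of liver and gut genes, differed by -0.29 with one from -0.66 to 0.09, and Hnf4g by -0.17 with one from -0.52 to 0.18. Nr1h2 differed by -0.01 (interval -0.07 to 0.06) and Nr1h3 (LXRα) by -0.17 (interval -0.38 to 0.04). Nr1i2 differed by 0.20 (interval -0.11 to 0.51). The wide intervals of Pparg, Hnf4a, Hnf4g and Nr1i2 left room for differences as large as those called elsewhere.

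The levels of receptors known from 1 cell type were set against the summed markers of that type within each genotype (log2 scale, 20 relations computed, permutation tests with 100000 draws or all orders where n was under 10). Nr2f1 followed the neural sum in WT (n = 12, r = 0.892, permutation p = 0.00013, adjusted 0.0026; rho = 0.902, permutation p = 0.00015, adjusted 0.003), and without the 2 libraries farthest from the median sum r was 0.910. In KO r was 0.810 (n = 12, permutation p = 0.00168, adjusted 0.0168), rho was 0.734 (permutation p = 0.00846, adjusted 0.0564), and r was 0.709 without the 2 farthest. For Nr4a2 no coefficient over all WT libraries is given because they fell into 2 sets by the level of Nr4a2 itself. The neural sums of these sets were also apart, at 8.73 to 10.6 and 16.0 to 51.1 RPKM. Within the larger set r was 0.501 (n = 7, exact permutation p = 0.269, rho 0.321 with exact p = 0.498) and turned to -0.912 without the 2 farthest libraries. Because that set was chosen by the level of Nr4a2, these values cannot show whether Nr4a2 follows the neural sum across WT libraries. In KO Nr4a2 gave r = 0.299 (n = 12, permutation p = 0.344) and rho = 0.0979 (permutation p = 0.768). Hnf4a and the endoderm sum gave r = 0.629 in WT (n = 12, permutation p = 0.0289, adjusted 0.115) and 0.679 in KO (permutation p = 0.0130, adjusted 0.0834), which did not pass after adjustment. Without the 2 farthest libraries r rose to 0.805 in WT and fell to 0.333 in KO. Nr1h4 did not follow the endoderm sum, with r = 0.197 in WT (n = 12, permutation p = 0.539) and -0.104 in KO (permutation p = 0.745). For Esr1 and the epithelial sum in KO, rho passed (0.769, permutation p = 0.00473, adjusted 0.0473, n = 12) and r did not (0.660, permutation p = 0.0167, adjusted 0.0834). That r fell to 0.479 without the 2 farthest libraries. No other relation passed by r or rho after adjustment. Receptors and markers were measured in the same libraries and share their depth.

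**Figure D4:**
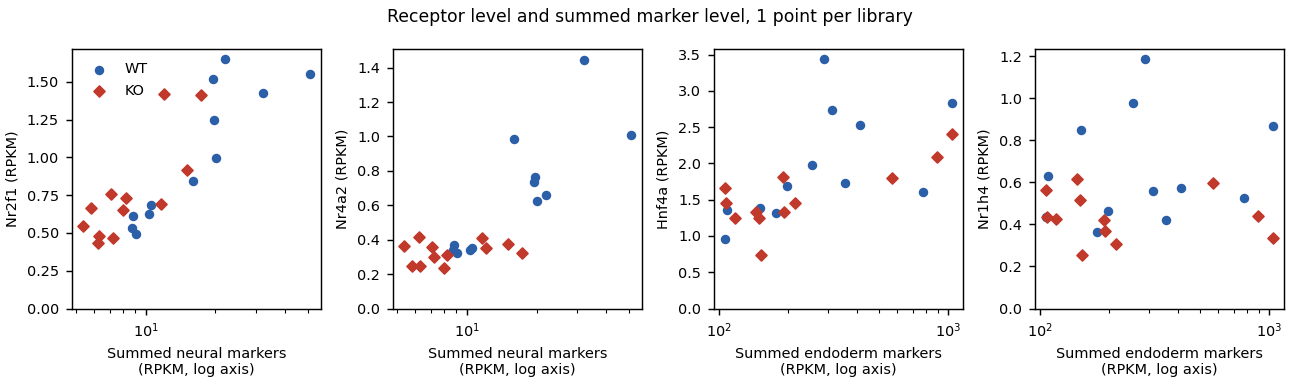
Level of Nr2f1, Nr4a2, Hnf4a and Nr1h4 in RPKM against the summed neural or endoderm markers in RPKM on a log axis, 1 point per library, WT in blue circles and KO in red diamonds. Nr2f1 rises with the neural sum in both genotypes, while Nr4a2 is above 0.6 RPKM only in the 7 WT libraries whose neural sum is at least 16.0 RPKM.

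Changes from 12 to 56 h were tested as a linear slope beside a 24 h cosine and sine, within each genotype. Rarb (chromosome 14, 16430840 to 17082331) rose in WT, the only one of the 32 rows to pass (3.12%, background 2.38%, with 1.11% rising and 1.26% falling). It went from 1.21 RPKM at 12 h to 1.83 at 52 h and 1.75 at 56 h, a slope of 0.30 on the log2 scale per 24 h (SE 0.0671, limma adjusted p = 0.0225). In KO it went from 1.14 at 12 h to 1.58 at 32 h and 1.35 at 56 h, a slope of 0.12 (limma adjusted p = 0.391), and the difference between the slopes was -0.18 (limma adjusted p = 0.797), so that the slopes were not shown to differ. Without the 12 h time point the slope in WT was 0.30 and the adjusted p 0.0667. Of the Rarb exon bases, 38.4% are shared with Top2b and Gm48162 together on the opposite strand. The slope of Top2b in WT was 0.05 (limma adjusted p = 0.608).

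Esrra had fitted slopes of opposite sign in WT and KO, and passed none of the tests on slopes. In WT it lay between 8.54 and 8.62 RPKM up to 20 h and between 6.93 and 7.26 from 44 h on, a slope of -0.17 per 24 h (limma adjusted p = 0.0557; 0.0396 to 0.0478 under 3 alternatives that placed it past the threshold). In KO it stood at 8.13 RPKM at 12 h and 7.99 at 56 h. Its lowest KO level was 7.43 RPKM at 24 h and its highest 9.91 at 44 h. The slope in KO was 0.11 (limma adjusted p = 0.213). The difference between slopes was 0.28 per 24 h (SE 0.0646, unadjusted p = 0.000353, limma adjusted p = 0.534), and the genotype difference was -0.06 up to 32 h and 0.24 from 36 h on (limma adjusted p = 0.384 and 0.0203). No receptor passed the slope test in KO (background 2.38%, with 1.34% rising and 1.04% falling) or the test of the difference between slopes (background 0%). At an unadjusted p of 0.05, 3 rows passed in WT (Esrra, Nr2c1 and Rarb; background 15.2%), 3 in KO (Esrra, Pparg and Vdr; background 16.7%) and 2 in the difference (Esrra and Nr4a3; background 6.38%).

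No receptor was called rhythmic. With the 24 h cosine and sine in limma, 0 of 32 rows passed in WT, in KO or in the difference between them, where the backgrounds were 0.0463%, 0.0728% and 0% of all genes. At an unadjusted p of 0.05 there was 1 row in WT (Esrrb, p = 0.0255; background 7.57%), 2 in KO (Ppara, p = 0.0169, and Nr6a1, p = 0.0268; background 7.92%) and 1 in the difference (Nr2c1, p = 0.0308; background 4.82%). JTK_CYCLE, a rank test, gave an unadjusted p under 0.05 for 0 rows in WT (smallest 0.130; background 4.54%) and for 3 in KO (Nr2f6 at 0.0107, Nr2c1 and Ppara at 0.0466 each; background 4.47%), and for 0 of the 32 rows or of all genes after adjustment in either. Ppara in KO was the one row below 0.05 in both methods, with a fitted log2 amplitude of 0.20. With 1 library per time point and 12 time points, these tests leave weak rhythms undetected.

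Lists of coregulators and target genes of the receptors are read against the background of the same test, 25.9% of all genes called, 11.2% higher and 14.7% lower, with a median difference of -0.01. Of 14 coactivators, 3 fell and none rose: Ncoa4, which also binds ferritin, by 0.16 (limma adjusted p = 0.0185), Ncoa2 (GRIP1) by 0.11 (limma adjusted p = 0.0227) and the acetyltransferase Crebbp by 0.17 (limma adjusted p = 0.0257), with a median over the 14 of -0.06, a share of calls near the background. Of 6 corepressors and inhibitors (median 0.02), 1 rose, Hr (hairless), from 3.65 ± 0.672 to 4.75 ± 0.651 RPKM (log2 difference 0.38, limma adjusted p = 0.00265). Hr is also a target of the thyroid hormone receptor, and of 3 targets tested on that list 2 rose, Hr and the malic enzyme Me1 (0.20, limma adjusted p = 0.00147), with a median of 0.20.

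Retinoic acid receptor targets went both ways, with 1 of 8 tested higher and 2 lower and a median of 0.05. The retinaldehyde reductase Dhrs3 fell by 0.21 (limma adjusted p = 0.00681), whereas the retinoic acid hydroxylase Cyp26b1 rose by 0.56 (limma adjusted p = 0.00223). Of 10 LXR targets, 2 rose and 3 fell (median -0.06). The fatty acid desaturase Scd1 rose from 6.20 ± 0.565 to 8.46 ± 0.776 RPKM, with no overlap between the genotypes (log2 difference 0.44, limma adjusted p = 2.56e-06), and the sterol exporters Abcg5 and Abcg8 fell by 0.75 (limma adjusted p = 0.00109) and by 0.63 (limma adjusted p = 0.00155). These exporters are made mainly in liver and gut cells, and the endoderm sum of KO was the lower at 8 of 12 times, a part that was not tested.

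Of 10 PPAR targets tested, 3 rose and 2 fell, with a median of 0.11: the lipoprotein lipase Lpl rose by 0.37 (limma adjusted p = 0.000319), while Cpt1a, which admits fatty acids to mitochondria, fell by 0.18 (limma adjusted p = 0.000804) and the kinase Pdk4 fell by 0.30 (limma adjusted p = 0.000993). Of 9 ESRRA targets (median 0.07) 4 rose and none fell, by at most 0.20, which was that of cytochrome c (Cycs, limma adjusted p = 0.00111), followed by the mitochondrial dehydrogenase genes Idh3a (0.13, limma adjusted p = 0.0212) and Mdh2 (0.10, limma adjusted p = 0.0262). Of 7 estrogen receptor targets (median 0.07), 3 rose and 1 fell: Pgr (above), Ltf (lactoferrin) at 0.56 (limma adjusted p = 0.0250) and Xbp1 rose, and the chemokine Cxcl12 fell by 0.43 (limma adjusted p = 0.000404). Of 7 targets of HNF4A, FXR and LRH-1 tested, 1 fell, Mttp, needed for lipoprotein assembly, which fell by 0.53 on the log2 scale (limma adjusted p = 0.0168), with a list median of -0.53. The 8 endoderm markers, some of which also stand on this target list, had a median of -0.28, and their part was not tested. Of 3 vitamin D receptor targets (median -0.14) Spp1 (osteopontin) rose by 0.23 (limma adjusted p = 0.0429). The lists hold between 3 and 14 tested genes, and their counts do not measure the activity of a receptor.

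**Figure D5:**
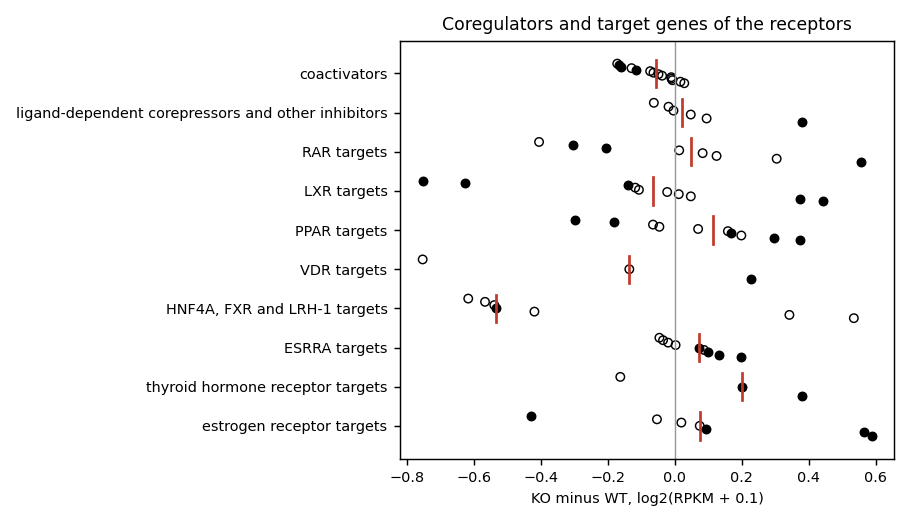
Difference between KO and WT for each tested coregulator and target gene, as log2(RPKM + 0.1), by list, with filled circles for an adjusted p under 0.05, open circles for the remainder and a red line at the list median. Lists with filled circles on both sides of 0 are the RAR, LXR, PPAR and estrogen receptor targets.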

How the data were processed

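The authors trimmed 101-bp paired-end reads with Trimmomatic 0.36, mapped them to GRCm38 (mm10) with STAR 2.5.4b, removed alignments with a mapping quality under 10 with SAMtools and quantified reads on the exons of UCSC known canonical genes with HOMER. They deposited RPKM values, the unit of every level given here, normalized to exonic length and library total. Exonic length converted RPKM to RPM. RPKM multiplied by length and total gave multiples of 0.5 fragment, which describe depth only. Libraries were grouped by genotype from their labels.

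Genes with a mean above 0.5 RPM in WT or KO were tested with limma 3.58.1 (R 4.3.3) on log2(RPKM + 0.1), in 7 tests: the genotype difference, and rhythm (24 h cosine and sine) and slope in WT, KO and their difference, each adjusted by Benjamini-Hochberg over 15112 genes. MetaCycle, which the study used, was replaced by the harmonic fit, with JTK_CYCLE as an alternative. The fits were checked on simulated data. Exon overlaps came from GENCODE M21, and promoter sequences from RefSeq (GRCm38.p6), where 38 of 40 genes matched.

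Members and lists were chosen with earlier results of these data known. Values are given in detail for members past the threshold in any test and for the most abundant of each role, and at most 3 genes with the smallest adjusted p are named per target list, except Xbp1, Gata4, Gata6 and Gfap, which were named to complete a count. A gene of the target lists, although counted, is not reported here. Alternatives were the pseudocount, the filter, 2 scalings, covariates, the time point as a block, early and late time points and a Student test on RPKM. Rhythm and slope were also tested without the 12 h time point, and rhythm without a slope. Chosen after seeing the data were a mean-variance trend in limma and the omission of the 16, 36 and 56 h time points. Summaries and figures used Python 3.11.15 (numpy 2.4.6, scipy 1.17.1, pandas 2.3.3) and matplotlib 3.10.9.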

Additional observations from a re-analysis of the deposited data

How the results depend on the processing

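Against 13 receptor rows called in the genotype difference, 8 were called with a filter of at least 1 RPKM (19 rows tested), 5 with the time points from 12 to 32 h, 5 with those from 36 to 56 h (3 of them among the 13) and 8 without the 16, 36 and 56 h time points. The first of these tested fewer rows and the others used fewer libraries. The remaining settings gave 9 to 14. Each of the 13 called rows kept its direction in all settings run, with 38 of 164 values no longer past the threshold. Pgr and Esr1 passed in every setting run. Among rows that were not called, the sign of the log2 difference turned for Esrra at 12 to 32 h (-0.063), Esrrb with quantile normalization (0.11) and without the 16, 36 and 56 h time points (0.16), Hnf4g (0.026), Nr3c2 (-0.11) and Nr1h2 (0.036) at 36 to 56 h, Nr1h2 with median-of-ratios scaling (0.00055), and Rarg (0.0041) and Rxrb (-0.029) at 12 to 32 h; the cause was not tested. The slope test in WT called 2 rows, Rarb and Esrra, with a mean-variance trend, with a filter of at least 1 RPKM and with a pseudocount of 1, and 0 without the 12 h time point, against 1. Rhythm tests called 0 rows in every setting, and the slope in KO and the difference of slopes likewise.

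Time points were shared by the genotypes but are not a shared batch in the labels. Deviations of same-time libraries from their group means correlated between -0.226 and 0.418 (12 pairs, mean 0.214, 11872 genes). Of these pairs, 9 of 12 were over 0.1, and 11 of 24 libraries correlated best with their own time point. Pairs of different time points correlated between -0.419 and 0.511 (132 pairs, mean -0.0195), and 44 of them were over 0.1. With the time point as replicate block, 13 rows were called, of which 11 were shared; Nr1h4 (adjusted p = 0.0693) and Nr2c1 (adjusted p = 0.0922) were lost, and Ppara (adjusted p = 0.0373) and Vdr (adjusted p = 0.0454) gained. The block called 0 rows in the differences of rhythm and slope. Depth limits the rare receptors most, since Esrrb, just above the filter, had a mean of 11.1 fragments in WT and 9.54 in KO.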
